A study of Mus musculus with 40 samples.

Results

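The S100a genes encode small proteins of the S100 calcium-binding family. The 10 described here, S100a1, S100a4, S100a5, S100a6, S100a8, S100a9, S100a10, S100a11, S100a13 and S100a16, were measured in the brain of young and aged mice. They were chosen by name: every probe whose gene name in the array files was one of the 10 symbols was taken, which gave 13 probes among 55681 and 10 genes among 36362. S100a1, S100a4 and S100a16 had 2 probes each, and the probe with the higher mean over all arrays stands for the gene. All mice were of the C57Bl/6 strain, and RNA of whole cerebral cortex or cerebellum from 4 mice per group was hybridised to 40 one-colour Agilent arrays in 10 groups. In each region the groups were wild-type mice of 2 months on a normal diet (36 mg of alpha-tocopherol per kg), wild-type mice of 29 months on that diet or on one deficient in alpha-tocopherol, and Ttpa-/- mice of 29 months that received the deficient diet or a supplemented one (600 mg per kg). Ttpa encodes the alpha-tocopherol transfer protein, by which vitamin E is retained in the body, and the knockout concerns all cells. Ttpa-/- mice on the normal diet and Ttpa-/- mice of 2 months were not analysed here.

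An S100 protein carries a pair of loops called EF hands and works as a dimer. In most members, though not all, the loops bind calcium, which exposes a surface that docks to a partner such as an annexin or a myosin. Some members act outside the cell as alarm signals through the receptors Tlr4 and RAGE (Ager). In brain S100 proteins are best known in astrocytes, and S100a8 and S100a9 are abundant in neutrophils and other myeloid cells.

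Levels are log2 signal relative to the 75th percentile of the same array, so that 0 is the 75th percentile. A gene was called where limma gave a Benjamini-Hochberg adjusted p under 0.05 over all probes tested and the fold change was over 1.5. Counts of genes at an unadjusted p under 0.05 have no share of all probes beside them. All 13 probes were well above background on all 40 arrays except that of S100a8 (38 arrays) and that of S100a9 (39 arrays), none was saturated, and all 10 genes were tested in every comparison. Marker genes went with the tissue labels: 5 of 5 cortex markers were called lower and 6 of 6 cerebellum markers higher in cerebellum at both ages. One Ttpa probe was detected well above background in cerebellum on all 4 arrays of every wild-type group, on 0 of 4 in deficient Ttpa-/- mice and on 1 of 4 in supplemented Ttpa-/- mice, and in cortex on 0 or 1 of 4 in any group. Whether it lies in the deleted part of the gene was not given in the sources used here. The other Ttpa probe was well above background on 1 array of 40, which was one of deficient Ttpa-/- cerebellum, against the label, and on none of the wild-type arrays. The 40 arrays lay on 5 slides and each group lay on 1 slide. In 4 of 13 comparisons both groups shared a slide, namely ageing in cortex, diet in wild-type cerebellum, diet in Ttpa-/- cerebellum, and supplemented Ttpa-/- against deficient wild-type cortex. In the other 9, slide and group cannot be told apart. In whole tissue, fewer cells of a type and less RNA per cell cannot be told apart either.

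The 10 genes lie on chromosome 3 in 2 groups. By the probes' positions in mm9, S100a1, S100a13, S100a16, S100a4, S100a5, S100a6, S100a8 and S100a9 followed each other, in that order, within 181 kb, and S100a11 and S100a10 lay within 38.5 kb of each other at a distance of 2.83 Mb. The probes of 3 members crossed an EF-hand loop, a feature that the family shares with other proteins, and their sequences are shown so that the shared pattern can be seen. Capitals mark the bases of the loop, found by translating each 60-base probe and searching for its acidic and polar residues. The S100a1 probe (mm9, chr3:90315191-90315250, minus strand) and the S100a8 probe (chr3:90473778-90473837, plus strand) held all 12 residues, and the S100a6 probe (chr3:90418160-90418219, plus strand) held it from residue 3 on.
S100a1: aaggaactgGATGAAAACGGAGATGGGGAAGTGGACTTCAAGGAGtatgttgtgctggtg
S100a6: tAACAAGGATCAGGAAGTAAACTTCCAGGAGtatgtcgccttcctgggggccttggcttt
S100a8: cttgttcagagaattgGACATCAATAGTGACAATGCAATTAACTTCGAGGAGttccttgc
The loops of S100a1 and S100a8 had 20 of 36 bases in common, and over the 30 bases that all probes held, the S100a6 loop shared 22 with S100a1 and 20 with S100a8.

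S100a8 and S100a9, whose products form the calprotectin complex, varied most. The S100a8 level in cortex was -5.49, -3.93, -4.22 and -5.35 in young wild-type mice, with 2 of the 4 arrays well above background. It was -1.48, -1.68, -1.21 and -1.55 in aged wild-type mice fed normally. The groups did not overlap, and in aged cortex the 4 arrays lay close together. S100a9 in cortex was -2.78, -2.16, -2.73 and -4.70 in young mice, with 3 of 4 arrays well above background, and 0.28, -0.0034, 0.20 and 0.29 in aged mice. Again every aged array stood above every young one, and young replicate 4 was the lowest of the 40 arrays for S100a9.

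On the deficient diet the aged wild-type cortical S100a8 level was -0.52, 1.15, -0.05 and -2.01, and that of S100a9 was 0.84, 2.46, 1.32 and -0.48. Deficient Ttpa-/- cortex had S100a8 at -2.46, -2.44, -1.13 and -2.10 and S100a9 at -0.77, -0.42, 0.48 and -0.38. Supplemented Ttpa-/- cortex had S100a8 at -2.78, -2.11, -1.89 and -3.58 and S100a9 at -1.20, -0.44, -0.26 and -1.49. The 4 aged cortex groups overlapped in part, and the deficient wild-type group held both the highest cortical value and the widest spread (SD 1.31 for S100a8 and 1.22 for S100a9, n = 4).

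In cerebellum both transcripts were higher, and single mice stood far apart. S100a8 was -1.05, -0.16, -1.91 and -0.05 in young mice, against 3.40, 0.66, 1.62 and 0.12 in aged mice on the normal diet. On the deficient diet wild-type mice had 0.89, 4.31, 0.94 and -1.32, deficient Ttpa-/- mice had -0.34, -0.38, 0.41 and -0.96, and supplemented Ttpa-/- mice had 0.53, 1.99, 0.10 and -0.63. The deficient wild-type group alone spanned more than the difference between any 2 cerebellar group means, from replicate 4 to replicate 2 (SD 2.32). S100a9 was 0.70, 1.53, -0.26 and 1.59 in young cerebellum, 5.12, 2.44, 3.24 and 1.72 in aged wild type on the normal diet, 2.34, 5.88, 2.57 and 0.47 on the deficient diet, 1.51, 1.45, 2.08 and 1.01 in deficient Ttpa-/- mice, and 2.27, 3.62, 1.94 and 1.20 in supplemented Ttpa-/- mice. The arrays that were highest for S100a8 were also highest for S100a9 in each of the 5 cerebellar groups.

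**Figure D1:**
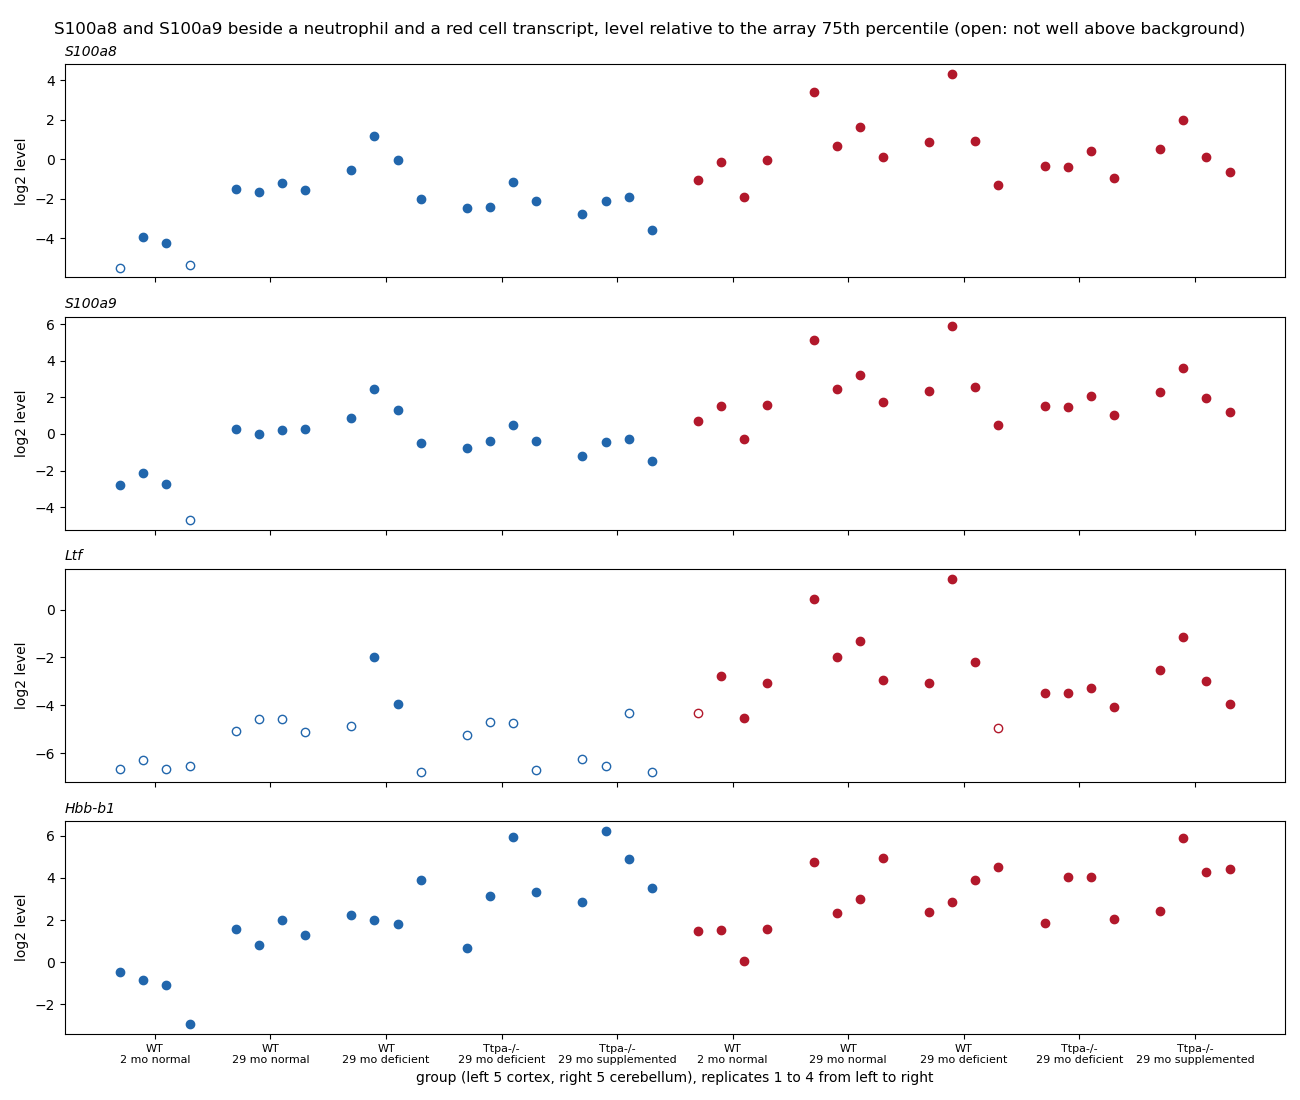
The 4 panels show S100a8, S100a9, the neutrophil transcript Ltf and the red cell transcript Hbb-b1, and each point is 1 of 40 arrays. The y axis is the log2 level relative to the array's 75th percentile and the x axis the group, with cortex in blue and cerebellum in red, and open points were not well above background. S100a8 and S100a9 reached 4.31 and 5.88 on the same array, deficient wild-type cerebellum replicate 2, where Ltf was also at its highest, 1.30.

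The pair moved together over all 40 arrays. After each gene was centred on its own mean, S100a8 and S100a9 differed by a root mean square of 0.28 log2 units, while a flat gene would have differed from them by 2.04 and 2.02. Among 21834 genes the patterns nearest to S100a8 were those of Ltf (lactotransferrin, root mean square difference 0.73) and Ngp (neutrophilic granule protein, 0.77), and the same genes came nearest to S100a9 (0.75 and 0.81). Both are granule proteins of neutrophils, and they were well above background on only 20 and 18 of 40 arrays. Ltf was at 1.30 in deficient wild-type cerebellum replicate 2 and at 0.46 in aged normal-diet cerebellum replicate 1, which were also the arrays with the highest S100a8. Of 10 neutrophil markers 9 were on the arrays. Their summed linear level, in units of the 75th percentile, ran from 40.8 to 220 over all groups, but Csf3r gave 97.2% of it on average, so the sum over the other 8 genes, a list trimmed after its values were seen, is given as well. In cortex it ran from 1.11 to 1.69 in young wild type, 1.59 to 2.00 in aged wild type on the normal diet, 1.63 to 3.09 in deficient wild type, 1.91 to 3.05 in deficient Ttpa-/- and 1.33 to 1.72 in supplemented Ttpa-/- mice. In cerebellum, in the same order, it ran from 1.28 to 2.05, 2.32 to 11.9, 1.36 to 19.6, 1.94 to 2.89 and 2.36 to 6.37. Of these 8 genes Elane and Camp gave the most, on average 1.47% and 0.82% of the full sum. In deficient Ttpa-/- cortex the median Elane level was 0.97, against 0.10 in aged normal-diet wild-type cortex. Ltf, Ngp and Retnlg were well above background on 0 of 4 arrays in both of those groups. Cxcr2 and Mmp8 were well above background on 2 and 5 arrays. The part of neutrophil RNA in the levels of S100a8 and S100a9 was not tested.

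The promoters of the pair are shown because both genes moved together. Each run is the 250 bases before the start of the gene in RefSeq's GRCm38.p6 annotation, 5' to 3' on the gene's strand, with capitals for matches, on either strand, to TTGCNNAA (bound by C/EBP factors), GAGGAA (bound by PU.1) and TATAAA (the TATA box). The S100a8 run is chr3:90668821-90669070 on the plus strand and the S100a9 run chr3:90695722-90695971 on the minus strand.
S100a8: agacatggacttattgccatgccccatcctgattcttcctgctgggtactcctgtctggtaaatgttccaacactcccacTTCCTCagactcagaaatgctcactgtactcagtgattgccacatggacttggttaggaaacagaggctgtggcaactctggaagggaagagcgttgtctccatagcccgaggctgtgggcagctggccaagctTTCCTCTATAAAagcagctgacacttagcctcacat
S100a9: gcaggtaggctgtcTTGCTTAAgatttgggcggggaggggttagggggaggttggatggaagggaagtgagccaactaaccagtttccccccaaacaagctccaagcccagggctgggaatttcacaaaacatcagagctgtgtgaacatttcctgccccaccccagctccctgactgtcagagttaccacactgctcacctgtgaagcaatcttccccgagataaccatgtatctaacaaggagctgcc
S100a8 held GAGGAA on the minus strand 170 and 36 bases before the start, and next to the second of these TATAAA, 30 bases before the start, without overlap. S100a9 held TTGCNNAA 236 bases before the start. Over 32851 such windows of all genes, 23.3% held GAGGAA, 12.4% TATAAA and 9.56% TTGCNNAA, so that each match is common. These are matches of letters and describe no binding.

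Between 2 and 29 months in wild-type mice on the normal diet, 4 of 10 S100a genes were called in cortex, all higher in aged mice, where 2.09% of all 28043 probes tested were called. S100a9 rose by 3.29 log2 units (SE 0.77, limma adjusted p = 0.00893) and S100a8 by 3.26 (SE 0.79, adjusted p = 0.0115). Both were tested because the aged arrays were well above background, while in young cortex S100a8 was so on 2 and S100a9 on 3 of 4 arrays, so the sizes rest in part on signal at background. Under a normexp background correction S100a8 was no longer called (1.34) and S100a9 gave 2.31 (adjusted p = 0.0482), and with young replicate 4 left out S100a9 was no longer called (2.75). The other 8 members were well above background on all of these arrays, and 2 of them were called. S100a4, which binds non-muscle myosin and is known from motile cells and fibroblasts, rose by 1.24 (SE 0.26, adjusted p = 0.00352), and S100a6, or calcyclin, by 0.70 (SE 0.13, adjusted p = 0.00085). The members' median change was 0.15, and that of all probes tested -0.03. With only the arrays of these 2 groups in the fit, S100a4 (adjusted p = 0.0693) and S100a6 (adjusted p = 0.0679) were no longer called at the same 1.24 and 0.70. For each of the 4 genes the exact two-sided permutation p was 0.0286, the smallest that 70 splits of 4 against 4 arrays can give. Groups without overlap always give that value, so it adds nothing to the lack of overlap. With age in cerebellum S100a1, S100a4, S100a8, S100a9 and S100a11 gave it too, and of these only S100a4 was called. The share of all probes whose groups did not overlap was not computed. The lack of overlap therefore describes these genes and does not set them apart from other probes.

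The S100a4 level in cortex was -0.57, -0.64, -0.49 and -0.57 in young mice and 0.48, 1.20, 1.05 and -0.04 in aged mice. The young arrays lay close together and all below the aged ones. The S100a6 level was 2.78, 2.95, 2.75 and 3.06 in young and 3.43, 3.80, 3.82 and 3.29 in aged cortex, again without overlap. The second S100a4 probe rose by 1.07 (adjusted p = 0.00164). The other 6 genes were not called, and their 95% confidence intervals were narrow for S100a13 (0.01, from -0.19 to 0.22), S100a10 (0.05, from -0.21 to 0.30) and S100a1 (0.06, from -0.12 to 0.25). S100a5, which lies between S100a4 and S100a6 on the chromosome, gave -0.18 (interval -0.63 to 0.27), S100a16 -0.11 and S100a11 0.24.

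**Figure D2:**
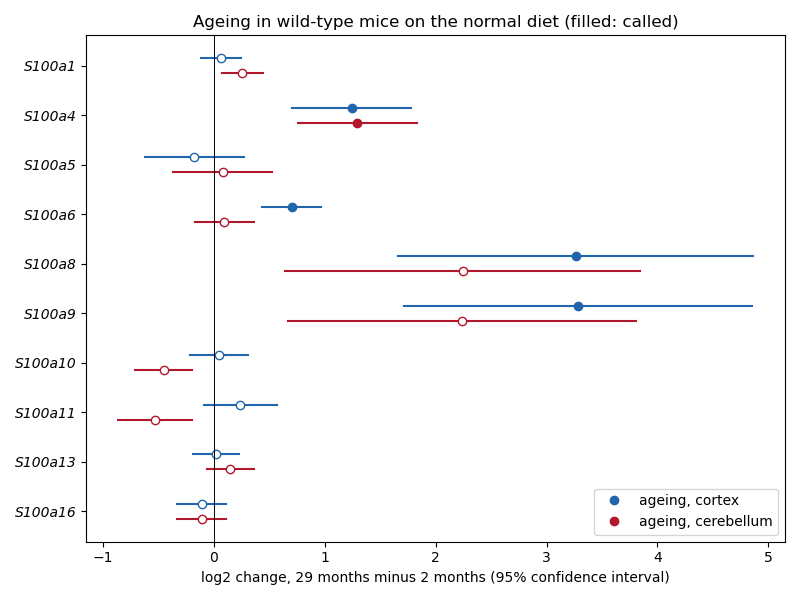
The x axis is the log2 change from 2 to 29 months in wild-type mice on the normal diet, with 95% confidence intervals, for the 10 genes on the y axis in cortex (blue) and cerebellum (red); filled points were called. S100a4 was called in both regions (1.24 and 1.29), while S100a6 gave 0.70 in cortex and 0.09 in cerebellum.

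In cerebellum 1 of 10 genes was called with age, against 5.03% of all 30627 probes tested, with a median of 0.12 over the members and -0.01 over all probes. S100a4 rose by 1.29 (SE 0.26, adjusted p = 0.000908), from -2.59, -2.95, -2.66 and -2.78 to -1.12, -1.70, -1.59 and -1.42, and its second probe by 0.79 (adjusted p = 0.012). S100a8 gave 2.24 (interval 0.64 to 3.84, adjusted p = 0.0621) and S100a9 2.24 (interval 0.67 to 3.81, adjusted p = 0.0564), and neither was called although every aged array stood above every young one. With a replicate block both were called (adjusted p = 0.0331 and 0.027), as they were under normexp and the methods' t-test unadjusted; S100a9 was also called with quantile normalization. Without aged replicate 4, 4 genes were called, S100a4 with S100a8 (2.69), S100a9 (2.71) and S100a11 (-0.59), and without young replicate 4, 2 were called, S100a4 and S100a11 (-0.59). S100a8 was 1.59 and S100a9 1.58 without aged replicate 1, the array with the highest level of both. S100a10, or p11, the partner of annexin A2, gave -0.45 in cerebellum (adjusted p = 0.0165), and S100a11, or calgizzarin, a partner of annexin A1, gave -0.53 (adjusted p = 0.0288). Both passed the adjusted p but not the fold limit. Over all probes, 3373 of 30627 had an adjusted p under 0.05. S100a1 gave 0.25 (adjusted p = 0.0672) by one probe and 0.33 (adjusted p = 0.0242) by the other. Young and aged cerebellum lay on different slides.

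None of the 10 genes differed between the regions in its change with age at an adjusted p under 0.05 in the interaction test, where 1.83% of 31372 probes passed, and 3 had an unadjusted p under 0.05. S100a11 came nearest (-0.77, cerebellum minus cortex, adjusted p = 0.0826), then S100a6 (-0.61, adjusted p = 0.0906) and S100a10 (-0.50, adjusted p = 0.195). S100a11 passed without young cortex replicate 4 (-0.92) and S100a6 without aged cortex replicate 4 (-0.71). For S100a4 the difference was 0.05 (interval -0.71 to 0.81).

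Of the genes that work with the S100 proteins, 4 of 14 tested receptors and binding partners rose with age in cortex and 5 of 15 in cerebellum, where 2.09% and 5.03% of all probes tested were called in either direction. Both lists were chosen with earlier results of these data known, so the counts describe the listed genes and test nothing. Among 5 receptors 3 were tested in each region. Tlr4, a receptor of S100a8 and S100a9, rose by 1.12 (adjusted p = 6.83e-06) in cortex and 1.50 (adjusted p = 6.18e-09) in cerebellum, and Cd33 by 1.69 in cerebellum (0.55, adjusted p = 0.134, in cortex), while Ager was not well above background on any of these arrays. Among 14 binding partners 11 were tested in cortex and 12 in cerebellum, and 3 were called in each, the same genes: Anxa1, the partner of S100a11, rose by 0.92 and 0.86, Anxa2, the partner of S100a10, by 0.70 and 0.66, and Ahnak, a scaffold bound by the S100a10 and annexin A2 complex, by 0.81 and 0.77, in cortex and cerebellum. The median of the tested partners was 0.02 in cortex and 0.08 in cerebellum. Of the 7 other S100 genes 3 were tested, S100b, S100a2 and S100a3, and none was called with age in either region at adjusted p under 0.05. S100b, the main S100 gene of astrocytes, gave 0.35 (adjusted p = 0.135) in cortex and -0.02 in cerebellum.

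Other cell-type markers that moved with age are given beside these genes. In cortex 0 of 3 tested neutrophil markers (Camp, Csf3r and Elane) and 0 of 7 microglia markers were called, and 1 of 7 astrocyte markers, Gfap, rose by 1.51. Camp ran from -2.375 to -1.796 in young and from -1.506 to -1.192 in aged cortex, while Csf3r and Elane overlapped. Ltf, Ngp and Retnlg were not tested there, since none was well above background on any array of either group. Red cell markers were not called in cortex (0 of 2 tested), yet Hbb-b1 gave 2.75 (adjusted p = 0.068) and the summed level of the 5 markers ran from 0.52 to 2.04 in young and from 4.75 to 11.2 in aged mice. In cerebellum 2 of 7 tested neutrophil markers rose, Mpo by 2.51 and Retnlg by 2.41 (well above background on 2 of 4 young arrays), together with 5 of 7 microglia markers, Gfap (1.87) and 2 of 4 tested red cell markers, Alas2 (2.67) and Hbb-b1 (2.58), and 2 of 5 choroid plexus markers fell. The summed level of the choroid plexus markers ran from 8.44 to 243 in young and from 5.44 to 6.38 in aged cerebellum. In cortex it ran from 2.50 to 132 in young and from 4.03 to 145 in aged mice, so single arrays of 1 group differed widely. The part of blood or of these cell types in the S100a changes was not tested.

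Most calls of members outside ageing lay between the regions. In young mice 4 of 10 genes were called between cerebellum and cortex, where 38.4% of probes were called, and in aged mice on the normal diet 5 of 10, where 33.6% were, so that the count of members is near that over all probes. Cerebellum was higher for S100a8 by 3.95 and 2.93, for S100a9 by 3.98 and 2.94, and for S100a11 by 1.87 and 1.10 at 2 and 29 months. In young cortex S100a8 was well above background on 2 and S100a9 on 3 of 4 arrays, and a normexp background correction gave 1.91 and 2.97 at 2 months, both still called. S100a4 was lower there (-2.18 and -2.13). S100a6 was -0.46 at 2 months (adjusted p = 0.003, under the fold limit) and -1.06 at 29 months. At an adjusted p under 0.05 alone stood 18885 of 30203 probes at 2 months and 17392 of 30859 at 29 months. The second S100a4 probe gave -1.43 and -1.71. The regions lay on different slides, so region and slide cannot be told apart. In aged cerebellum 5 of 7 tested neutrophil markers and 4 of 4 tested red cell markers were also higher and 4 of 7 microglia markers lower, and in young cerebellum 3 of 3 tested red cell markers were higher and 6 of 7 microglia markers lower. At both ages 3 of 8 meningeal and fibroblast markers were higher and 1 lower, 2 of 7 astrocyte markers higher and 1 lower, 2 of 5 neuron markers lower and 3 of 5 ependymal markers lower. Of 6 choroid plexus markers 1 was higher at 2 months, and 1 was higher and 3 lower at 29 months. Their part in the S100a differences was not tested.

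S100a11 and S100a4 ran in opposite directions between the regions. S100a11 was -0.66, -0.60, -0.96 and -0.15 in young cortex and 1.32, 1.32, 1.39 and 1.10 in young cerebellum. In aged normal-diet mice it was -0.45, -0.14, -0.49 and -0.34 in cortex and 0.81, 0.55, 0.71 and 0.92 in cerebellum. The 10 groups in order of their S100a11 means split by region, with a gap of 0.88 between the lowest cerebellar group (aged normal-diet wild type, 0.75) and the highest cortical group (supplemented Ttpa-/-, -0.13), and within each region neighbouring groups overlapped. S100a4 means ran from -2.75 in young cerebellum to 0.85 in supplemented Ttpa-/- cortex, and S100a6 means from 2.18 in deficient Ttpa-/- cerebellum to 3.59 in deficient wild-type cortex. Of the 3 other S100 genes tested, S100b was higher in cerebellum by 1.86 and 1.49, and S100a3 was lower at 2 months (-0.95). Of 12 tested partners the same 4 were called at both ages, with Fgf1, whose release involves S100a13, higher by 1.37 and 1.68, Htr1b by 1.70 and 1.34, and Syt1 lower (-1.72 and -1.67). Of 3 tested receptors Cd33 was lower at 2 months (-1.71) and Tlr4 higher at 29 months (0.72). S100a10 was lower by -0.58 in aged cerebellum (adjusted p = 0.000257), just under the fold limit, and was called when any one of 4 arrays was left out (aged cortex replicate 2, -0.60, or 3, -0.62, and aged cerebellum replicate 1, -0.69, or 4, -0.59) or under median scaling (-0.60). S100a5 at 2 months gave -0.50 and was called without young cortex replicate 1 (-0.59) or 4 (-0.61).

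**Figure D3:**
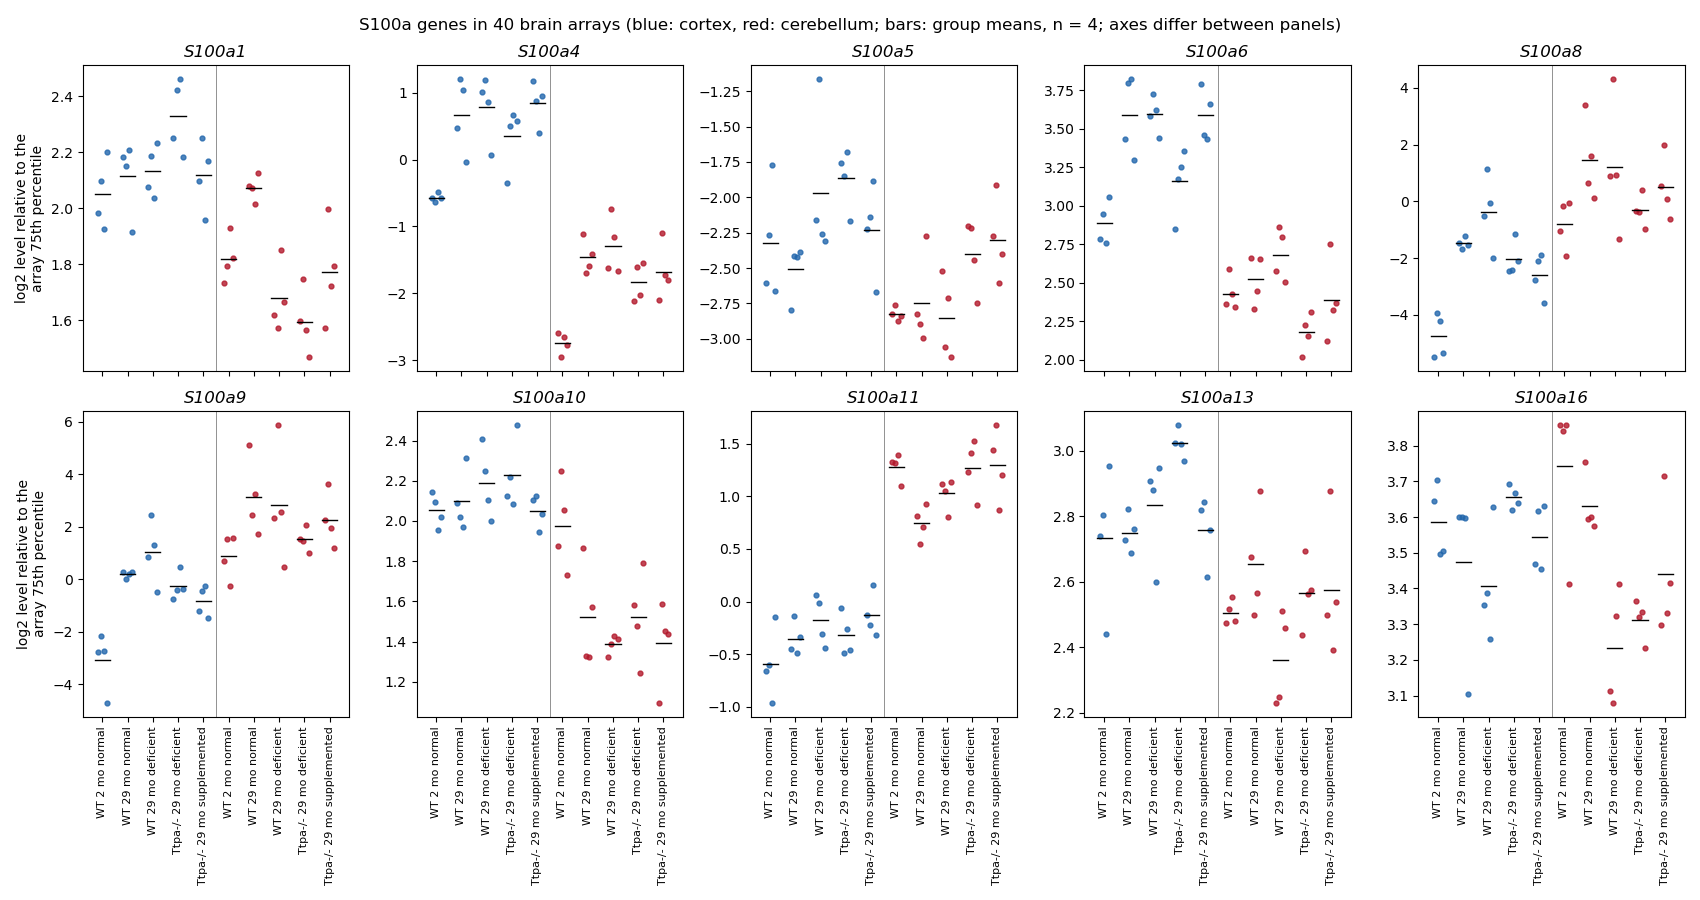
The 10 panels show the log2 level relative to the array's 75th percentile (y axis, own scale for each gene) of 40 arrays, by group on the x axis (WT, wild type; cortex blue, cerebellum red), with bars for the means of 4. S100a4 and S100a11 split by region on every array, with S100a4 means from -2.75 to 0.85, whereas S100a13 means stayed between 2.36 and 3.02.

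Vitamin E status was compared within the aged mice, where several comparisons share arrays. The comparison of deficient Ttpa-/- mice with normal-diet wild type called 1 of 10 genes in cortex, where 4.75% of probes were called, and 0 of 10 in cerebellum, where 4.46% were. S100a5, a member known from olfactory sensory neurons, rose in cortex by 0.64 (SE 0.22, adjusted p = 0.0389), from -2.80, -2.41, -2.42 and -2.39 to -1.76, -1.85, -1.68 and -2.17. The groups did not overlap, but the call was lost when any of aged wild-type replicates 1 to 3 (0.54, 0.67 and 0.67) or deficient Ttpa-/- replicates 1 to 3 (0.60, 0.64 and 0.58) was left out, and under median scaling, where the change was 0.72 (adjusted p = 0.0569), or a normexp background correction, which put it under the fold limit (0.42, adjusted p = 0.0377). Genotype and diet differ together in this comparison. The mean S100a5 level in cortex was -2.50 in normal-diet and -1.97 in deficient wild-type mice, without overlap, and -1.86 in deficient Ttpa-/- mice. S100a6 was lower in deficient Ttpa-/- cortex (-0.43, adjusted p = 0.02), under the fold limit. Over all probes, 5496 of 28913 had an adjusted p under 0.05 in this cortex comparison. Of the cell-type markers, 1 of 3 tested neutrophil markers, Elane, was higher (0.83) and 1 of 8 meningeal and fibroblast markers, Lum, was lower (-0.73), and their part in these values was not tested. The S100a1 probes gave 0.22 (adjusted p = 0.0902) and 0.32 (adjusted p = 0.0215).

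In deficient Ttpa-/- cerebellum S100a1, a regulator of calcium pumps and channels, was -0.48 against normal-diet wild type (adjusted p = 0.000679), with 1.60, 1.75, 1.56 and 1.47 against 2.08, 2.07, 2.01 and 2.13. The groups did not overlap, and the fold was below 1.5. Over all probes, 4036 of 30604 had an adjusted p under 0.05. S100a11 gave 0.53 (adjusted p = 0.0292) and was called without deficient Ttpa-/- replicate 4 (0.64). S100a8 gave -1.77 (interval -3.37 to -0.17, adjusted p = 0.136) and S100a9 -1.61 (adjusted p = 0.168). Of the other S100 genes S100a2 rose by 0.75, and of the receptors Cd33 fell by 0.70. Of the cell-type markers, Mbp and Mag of 6 oligodendrocyte markers (-0.62 and -0.66), Aif1 of 7 microglia markers (-0.59) and Gfap of 7 astrocyte markers (-0.64) were lower, and their part in the S100a values was not tested.

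Diet alone in wild-type mice called 0 of 10 genes in cortex (background 0.223%) and 0 of 10 in cerebellum (1.28%), with 1 and 3 genes at an unadjusted p under 0.05 in limma. S100a5 in cortex, not called, had a mean of -1.97 on the deficient and -2.50 on the normal diet, without overlap, on different slides. In cerebellum, where both groups lay on 1 slide, S100a1 was -0.40 on the deficient diet (adjusted p = 0.0147) and its second probe also -0.40 (adjusted p = 0.0201), and S100a16, a broadly expressed member, was -0.40 (adjusted p = 0.0343) with 3.11, 3.08, 3.32 and 3.41 against 3.75, 3.59, 3.60 and 3.57. Both genes passed the adjusted p and not the fold limit, and for both the groups did not overlap. In cerebellum 1420 of 30990 probes had an adjusted p under 0.05. Of 6 oligodendrocyte markers 1 was called lower there.

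Genotype on the deficient diet called 0 of 10 genes in cortex (3.07%) and in cerebellum (4.94%), with 4 and 2 genes at an unadjusted p under 0.05. At an adjusted p under 0.05 alone stood 3772 of 29061 probes in cortex and 3900 of 30552 in cerebellum. S100a6 passed the adjusted p in both, with -0.43 in cortex (adjusted p = 0.0257) and -0.51 in cerebellum (adjusted p = 0.00947). Its cortex levels were 2.85, 3.17, 3.25 and 3.36 in Ttpa-/- and 3.58, 3.73, 3.62 and 3.44 in wild-type mice, and its cerebellar levels 2.02, 2.23, 2.16 and 2.31 against 2.57, 2.86, 2.80 and 2.50, so that every Ttpa-/- array lay below every wild-type one. The second S100a16 probe gave 0.30 in cerebellum (adjusted p = 0.0473), where the first gave 0.08 (adjusted p = 0.662). S100a8 in cerebellum, -1.52 (adjusted p = 0.202), was called without wild-type replicate 4 (-2.37). There 1 of 6 tested neutrophil markers and 1 of 7 microglia markers were called higher.

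Supplementation of Ttpa-/- mice called 0 of 10 genes in cortex (3.31%) and in cerebellum (0.343%), with 3 and 0 genes at an unadjusted p under 0.05. S100a6 in cortex was 0.43 higher on the supplemented diet (adjusted p = 0.0254), at 3.79, 3.46, 3.44 and 3.66, above each array of the deficient group. Over all probes, 4097 of 29077 had an adjusted p under 0.05 there. In that comparison 1 of 8 meningeal and fibroblast markers and 1 of 6 oligodendrocyte markers were higher and 1 of 3 tested neutrophil markers lower, and their part was not tested. In cerebellum the S100a6 difference was 0.21 (interval -0.05 to 0.48). Supplemented Ttpa-/- against deficient wild-type cortex, on 1 slide, called 0 of 10 genes (0.0316%) with 2 at an unadjusted p under 0.05, S100a8 (-2.23, adjusted p = 0.358) and S100a9 (-1.88, adjusted p = 0.445). The S100a6 means of those groups were 3.59 each, with a difference of -0.01 (interval -0.27 to 0.26).

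**Figure D4:**
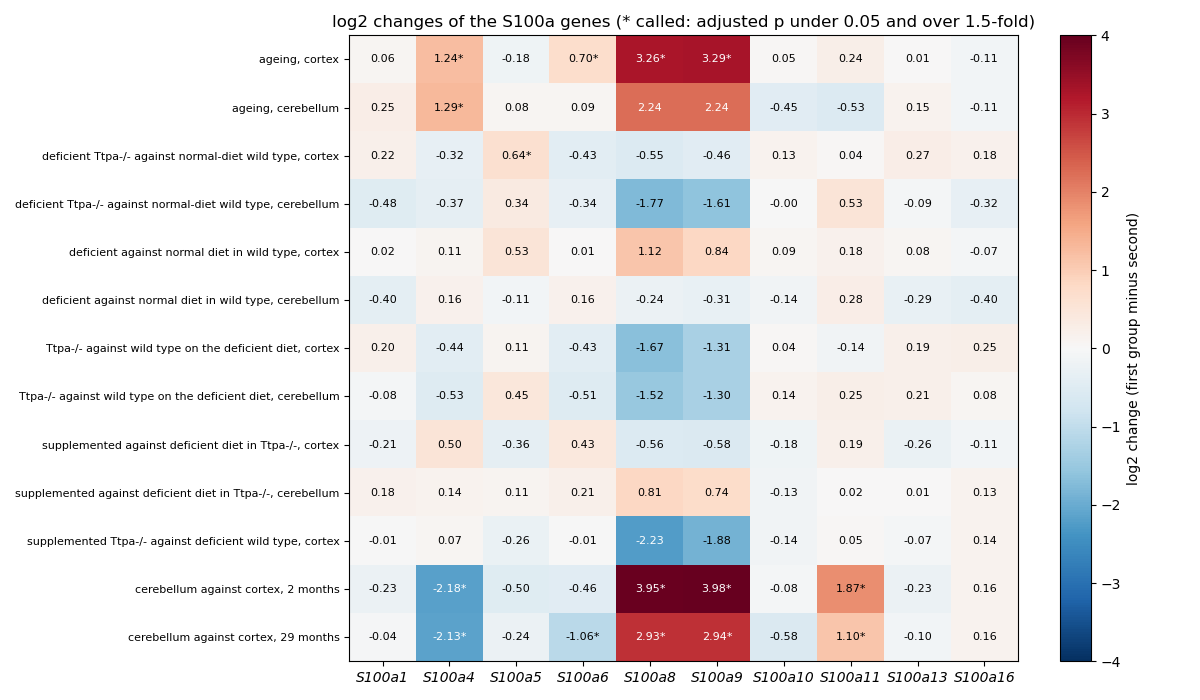
Each cell gives the log2 change of 1 gene (x axis) in 1 of 13 comparisons (y axis), first group minus second, with colour from blue (lower) to red (higher) and an asterisk where the gene was called. All asterisks but that of S100a5 (0.64, deficient Ttpa-/- against normal-diet wild type in cortex) stand in the rows for age and region.

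The group means of S100a1, S100a13, S100a16 and S100a10 had the narrowest ranges among the members. Those of S100a1 ran from 1.59 to 2.33, of S100a13, which takes part in the release of Fgf1, from 2.36 to 3.02, of S100a16 from 3.23 to 3.74, and of S100a10 from 1.39 to 2.23. For S100a13 every array of deficient Ttpa-/- cortex (mean 3.02) stood above every array of the other groups, of which deficient wild-type cortex came next (mean 2.83). The gene was called in no comparison, and the other cortex groups lay on other slides. S100a1 and S100a13 were the pair nearest to each other of all 45 pairs, with a root mean square difference of 0.14 over 40 arrays, where a flat gene would give 0.25 and 0.21, so that both varied little. Their starts face away from each other with 104 bases between them (GRCm38.p6, chr3:90514331-90514434, plus strand), which are shown with CpG in capitals because these neighbours were also nearest in pattern.
S100a1 and S100a13: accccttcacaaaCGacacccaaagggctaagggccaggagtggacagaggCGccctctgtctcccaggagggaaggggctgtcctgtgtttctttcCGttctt
This stretch had 3 CpG and 58.6% G and C, where the median of all promoter windows (250 bases before to 50 after a start) was 52.7%. None of TTGCNNAA, GAGGAA and TATAAA was found in the 250 bases before the S100a1 or the S100a13 start. A promoter window was held for 9 of the 10 members.

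The remaining members with a wide range had other neighbours in pattern. S100a4 was nearest to Ugt1a6b (root mean square difference 0.39) and Spint1 (0.44), against 1.27 for a flat gene. S100a6 was nearest to Scarf2 (0.22) and Nipsnap1 (0.24), against 0.54, and S100a11 to 1700025F22Rik (0.20) and Ovgp1 (0.21), against 0.77. These are descriptions over 40 arrays that share regions, groups and slides.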

How the data were processed

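Per the labels and the file headers, total RNA was labelled with Cy3 and hybridised to one-colour Agilent mouse arrays, with 4 arrays in each of 10 groups. Each array of a group stands for 1 mouse. Whether both regions came from the same mice is not given, and the main fit paired no arrays between the regions. The deposited scanner files hold probe intensity values, the processed signal that Agilent Feature Extraction gave after background correction (version 10.7.3.1 in the file headers, 10.1.1.1 in the submitters' processing notes), with flags for spots well above background or saturated. The authors also deposited log2 values after global normalization, centred on each probe's mean, which differed from the log2 values computed here, once centred alike, by a median of 0.00085 and served as an alternative.

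Here log2 of the processed signal minus the log2 75th percentile of each array (365 to 925 in signal) was fitted with limma 3.58.1 in R 4.3.3, 1 coefficient per group over 40 arrays, with the moderated test and Benjamini-Hochberg adjustment over those probes that every array of at least 1 compared group detected well above background. On each array 51.4% to 61.4% of the probes with a value on every array were well above background. The number of arrays limits the precision. Control spots were left out, as were 92 probes without a value on every array. Calls required a fold change over 1.5, the limit in the study's methods, besides an adjusted p below 0.05. Exact permutation tests used 70 splits. In a check on the measured arrays, the means of the 2 groups were set equal and 200 probes were then changed 2-fold. Of these, 169 of 200 were recovered for ageing in cortex (28043 probes) and 154 of 200 in cerebellum (30627 probes). All other probes had equal means there, unlike in the real comparisons. Arrays of the same replicate number deviated together in all 4 pairs (r from 0.11 to 0.18) only between supplemented and deficient Ttpa-/- cortex, where a replicate block changed no call; the labels do not say what the numbers mark. The S100a genes, every probe of them, and the marker, receptor and partner lists were chosen with earlier results of these data known. Of the lists, the genes called were named, up to 3, and for members with group means of SD 0.5 or more the 2 nearest genes in pattern. Promoters came from RefSeq (GRCm38.p6), with 9 of 10 members matched.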

Additional observations from a re-analysis of the deposited data

Results flagged for a closer look

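In 6 of 100 groups of 4 arrays, 1 array lay apart from the other 3 by Dixon's test, where chance alone gives about 5%. S100a4 in deficient Ttpa-/- cortex was -0.3547 on replicate 1, with the next array at 0.50. S100a5 was -2.798 on replicate 1 of aged wild-type cortex on the normal diet (next -2.42), and -1.165 on replicate 2 of deficient wild-type cortex (next -2.16). S100a16 was 3.104 on replicate 4 of aged normal-diet cortex (next 3.60), 3.412 on replicate 4 of young cerebellum (next 3.84) and 3.753 on replicate 1 of aged normal-diet cerebellum (next 3.60).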

How the results depend on the processing

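Counts of called S100a genes changed under these settings. In aged against young cerebellum the main count of 1 became 2 with quantile normalization, 3 with normexp background correction, 3 with a replicate block and 3 with the methods' t-test unadjusted (S100a4, S100a8 and S100a9 in each of these 3 settings), and 1 to 4 when single arrays were left out. In aged against young cortex the count of 4 became 2 with the compared groups alone and 2 with the methods' t-test adjusted. It became 3 with normexp background correction, where S100a8 was lost, and 3 to 4 with single arrays left out. Cerebellum against cortex gained S100a10 at 29 months with median scaling. With single arrays left out that comparison gave 4 to 5 genes at 2 months and 5 to 6 at 29 months. Deficient Ttpa-/- against normal-diet wild-type cortex gave 0 with median scaling, 0 with normexp and 0 to 1 with single arrays left out. Supplemented Ttpa-/- against deficient wild-type cortex gave 2 with the methods' t-test unadjusted, S100a8 and S100a9. The difference between the regions gave 1 gene, S100a11, with normexp and 0 to 1 with single arrays left out. Deficient Ttpa-/- against normal-diet wild type and genotype on the deficient diet, both in cerebellum, gave 0 to 1 with single arrays left out. The replicate block changed no other count by over 1.5 times, and in 0 of 13 comparisons did every array correlate best with its own number. The cause of these changes was not tested. Of 2440 alternative member values 82 had the opposite sign, none of them called in either fit. Median scaling moved the median of all probes by over 0.1 in 4 comparisons: -0.18 for diet in wild-type cerebellum, 0.18 for genotype in deficient cerebellum, -0.11 for diet in Ttpa-/- cortex and -0.12 for supplemented Ttpa-/- against deficient wild-type cortex. On 2 of the 4 young cortex arrays S100a8 was not well above background, which limits its ageing change there.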

Other observations

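The labels do not say whether a replicate number marks the same mouse in cortex and in cerebellum. For S100a8 the highest array had the same number in both regions in 2 of 5 groups, and so had the lowest. In deficient wild-type mice replicate 2 was highest (1.15 in cortex and 4.31 in cerebellum) and replicate 4 lowest (-2.01 and -1.32). In deficient Ttpa-/- mice replicate 3 was highest (-1.13 and 0.41), and in supplemented Ttpa-/- mice replicate 4 was lowest (-3.58 and -0.63). In aged mice on the normal diet the highest was replicate 3 in cortex (-1.21) and replicate 1 in cerebellum (3.40), and in young mice replicate 2 in cortex (-3.93) and replicate 4 in cerebellum (-0.05).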
